A study of Mus musculus with 12 samples.

Results

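The 10 genes described here are immediate early genes, chosen by name: Fos, Fosb, Jun, Junb, Egr1, Egr2, Arc, Nr4a1, Ier2 and Dusp1. All 10 were found by their Ensembl identifiers among the 18911 genes of the count table, and all 10 were among the 17076 genes tested. They were measured by poly(A) RNA-Seq in mouse neural progenitor cells (mNPCs), dissected from the hippocampus of newborn pups (P0, postnatal day 0) and grown as adherent cultures in Neurobasal medium with B27, FGF-2, EGF and heparin. The 12 libraries fall into 4 genotypes of 3 libraries each, all on a C57BL/6J background. Kmt2a+/+ cells are wild type. Kmt2a+/LSL cells carry, on 1 allele of Kmt2a in every cell, a stop cassette flanked by loxP sites (LSL) within intron 1, which ends the transcript early, and serve as a model of Wiedemann-Steiner syndrome. Nes-Cre+/- Kmt2a+/LSL cells carry the same allele and a Cre recombinase under the nestin promoter, which removes the cassette in nestin-expressing cells of the nervous system and their progeny only. These are called restored in what follows. Nes-Cre+/- Kmt2a+/+ cells carry the Cre without the cassette and are called the Cre control. The study calls the libraries of a genotype biological replicates, and the labels do not say whether they came from separate pups or litters, so p-values measure the spread between these cultures.

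Immediate early genes are switched on within minutes of a stimulus such as a growth factor, depolarization or handling, from promoters that are already bound by factors such as SRF with its ELK partners and CREB, and without the synthesis of new protein. Their mRNAs and proteins are short-lived. In neural progenitors the FGF-2 and EGF of the medium act on them through the ERK kinases. In neurons they are the usual marker of recent activity, and Kmt2a, the H3K4 methyltransferase truncated here on 1 allele, acts at active promoters and enhancers in general.

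Promoter windows from RefSeq (GRCm38.p6, 250 bases before to 50 after a transcription start) were at hand for 7 of the 10 genes, and for 27025 genes in all. Egr1, Arc and Ier2 had no entry. In the 250 bases upstream of a start, TGACG, the core of the cAMP response element that CREB binds, occurred on either strand (CGTCA on the other) at 6 of the 7 genes, namely Fos, Fosb, Junb, Egr2, Nr4a1 and Dusp1, against 19.8% of all genes and 17.8% of all windows. The palindrome TGACGTCA, which contains TGACG, occurred at Dusp1 only of the 7 (1.77% of all genes). The CArG box of SRF occurred at Egr2 only (1.62% of all genes), TATAAA at Fos only (14.3% of all genes), and TGANTCA, the AP-1 motif, at none of the 7 (7.82% of all genes). These matches describe letters in a window, and a motif outside the window was not sought. Stretches of 200 bases are shown for 4 genes, of which Fos, Junb and Nr4a1 had their highest level in the same library and Dusp1 did not. They run 5′ to 3′ on the strand of the gene, overlap no annotated exon, and have TGACG or CGTCA in capitals. The Fos stretch (chr12:85473690-85473889, plus strand), the Junb stretch (chr8:84978749-84978948, minus strand) and the Nr4a1 stretch (chr15:101266646-101266845, plus strand) end at the base before the start. The Dusp1 stretch (chr17:26508523-26508722, minus strand) begins 250 bases before it. Those of Nr4a1 and Dusp1 lie within the annotated gene, before a start inside it.
Fos: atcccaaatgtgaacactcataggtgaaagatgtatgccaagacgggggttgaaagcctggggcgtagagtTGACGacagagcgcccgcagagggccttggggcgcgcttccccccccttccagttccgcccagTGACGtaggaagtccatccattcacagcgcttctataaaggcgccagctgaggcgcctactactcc
Junb: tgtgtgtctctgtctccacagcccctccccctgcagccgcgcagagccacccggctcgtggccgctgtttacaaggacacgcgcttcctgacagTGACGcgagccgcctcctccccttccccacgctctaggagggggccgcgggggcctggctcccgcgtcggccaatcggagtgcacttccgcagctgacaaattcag
Nr4a1: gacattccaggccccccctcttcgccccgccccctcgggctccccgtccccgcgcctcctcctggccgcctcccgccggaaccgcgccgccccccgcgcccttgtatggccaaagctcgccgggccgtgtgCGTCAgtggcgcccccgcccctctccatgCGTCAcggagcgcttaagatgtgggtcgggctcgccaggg
Dusp1: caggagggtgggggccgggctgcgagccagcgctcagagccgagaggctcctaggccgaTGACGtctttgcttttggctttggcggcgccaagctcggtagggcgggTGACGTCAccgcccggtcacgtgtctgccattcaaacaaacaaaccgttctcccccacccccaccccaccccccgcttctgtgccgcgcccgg

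Library totals lay between 18280008 and 28596919 estimated counts, at which 3 counts correspond to 0.105 to 0.164 CPM (counts scaled to a common library total). Such floors cover counting error only. Kmt2a itself was lowest in the Kmt2a+/LSL libraries, with a mean normalized count of 3944 ± 9.3 (SD, n = 3) against 6879 ± 236 in the wild type, 7058 ± 324 in the Cre control and 6458 ± 302 in restored cells, and the 3 Kmt2a+/LSL libraries lay below all others. Its log2 fold change was -0.80 (SE 0.13) against the wild type, with an unadjusted p of 4.34e-05 and an adjusted p of 0.281 in edgeR. The 9 neural progenitor markers summed to 5958 to 14368 CPM in a library. Markers of neurons (1016 to 1917 CPM), astrocytes (2536 to 4861) and the oligodendrocyte lineage (1176 to 5334) reached these sums largely through single genes. Map2 had 28216 to 37911 counts in a library, Slc1a3 42803 to 75797, and Olig1 11852 to 120717. The neuronal genes Stmn2 (0 to 8 counts), Neurod6 (0 to 5) and Rbfox3 (8 to 63) and the myelin gene Mbp (18 to 56) were low in every library. Microglial markers stayed at or below 2.14 CPM, those of fibroblasts and mural cells at or below 3.06, and those of endothelial cells at or below 13.5. The 3 hemoglobin genes sought for red blood cells were not in the table. Kmt2a+/+ replicate 1 stands apart from the rest. It has the smallest total and the highest share of mitochondrial mRNA (12.7%, against 3.96% to 10.3%), and its log2 CPM correlated at 0.925 across genes with the median of the other 11 libraries, where the others had 0.976 to 0.990. It was the lowest of the 12 libraries for 34.1% of all tested genes and the highest for 30.0%. Kmt2a+/LSL replicate 3 resembled the others over all genes but stood apart for the immediate early genes, so the fold changes of these genes are also given without these libraries, and the gene lists, Kmt2a and the test over 4 genotypes with all 12 libraries alone.

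The genes span a wide range of levels. As CPM per kilobase of the longest coding transcript, the medians over 12 libraries ran from Egr1 (32.8) through Jun (17.0), Ier2 (12.4), Fos (8.21), Dusp1 (7.88), Junb (3.01), Nr4a1 (2.48), Egr2 (0.836) and Arc (0.318) to Fosb, listed at 0 in 9 of 12 libraries. All 9 neighbouring pairs in this order overlapped in their ranges over the libraries, for example Nr4a1 (1.36 to 4.00) and Egr2 (0.496 to 3.57). All values that follow are normalized counts, that is, counts scaled to a common library size with TMM factors, which are not corrected for length and are comparable between libraries but not between genes.

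Fos (chr12:85473890-85477273, plus strand) encodes the AP-1 subunit that pairs with JUN proteins, and is the classic marker of a recent stimulus. Its normalized counts were 851, 287 and 410 in wild type replicates 1 to 3, and 396, 346 and 1155 in Kmt2a+/LSL. They were 412, 454 and 433 in the Cre control, and 493, 316 and 237 in restored cells. A single library in each genotype without Cre was high, Kmt2a+/+ replicate 1 and Kmt2a+/LSL replicate 3, the other 10 lay between 237 and 493, and the genotypes overlapped. Fosb (chr7:19302696-19310051, minus strand), a FOS paralog, was listed at 0 in 9 libraries and had estimated counts of 11 in Kmt2a+/LSL replicate 1, 26 in restored replicate 2 and 16 in restored replicate 3. It was at 0 in Kmt2a+/LSL replicate 3, where Fos was highest. A count of 0 here allows up to 3 counts.

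Jun (chr4:95049034-95052222, minus strand) encodes the main partner of FOS. Over all 12 libraries it had the smallest spread of the 10, with a mean of 1364 ± 285 (SD, n = 3) in the wild type, 1545 ± 331 in Kmt2a+/LSL, 1307 ± 185 in the Cre control and 1178 ± 127 in restored cells. Its highest library was Kmt2a+/LSL replicate 1 (1902) and its lowest restored replicate 2 (1086). Junb (chr8:84974484-84978718, minus strand), a JUN paralog that forms AP-1 dimers of weaker activity, varied far more. Its normalized counts were 26.8, 100 and 168 in the wild type, 112, 87.7 and 395 in Kmt2a+/LSL, 147, 196 and 151 in the Cre control, and 91.0, 164.5 and 110.4 in restored cells. Both extremes were single libraries, Kmt2a+/+ replicate 1 at the bottom and Kmt2a+/LSL replicate 3 at the top. Jun and Junb share 6.39% and 6.51% of their 31-base words with other transcripts, so a small part of their counts could be split between genes.

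Egr1 and Egr2 (chr10:67535475-67542188, plus strand) encode zinc finger transcription factors that act on the next wave of genes after a stimulus. For Egr1 the normalized counts were 6822, 2452 and 4883 in the wild type, 3212, 3164 and 15451 in Kmt2a+/LSL, 6357, 2478.5 and 2381 in the Cre control, and 4969, 3760 and 2443 in restored cells. Those of Egr2 were 134, 93.4 and 55.4 in the wild type, 37.4, 88.7 and 252 in Kmt2a+/LSL, 60.8, 56.8 and 34.9 in the Cre control, and 88.6, 50.7 and 45.5 in restored cells. For both genes Kmt2a+/LSL replicate 3 was highest and Kmt2a+/+ replicate 1 came next, while the other Kmt2a+/LSL libraries sat inside the range of the wild type for Egr1, and for Egr2 replicate 2 sat inside it and replicate 1 below it. Kmt2a+/LSL replicate 3 exceeded the median of the other 11 libraries 4.81-fold for Egr1 and 4.43-fold for Egr2.

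Nr4a1 (chr15:101254269-101274795, plus strand) encodes an orphan nuclear receptor, Ier2 (chr8:84661331-84662852, minus strand) a nuclear protein induced by growth factors, and Arc (chr15:74669083-74672570, minus strand) a synaptic protein whose mRNA travels to active dendrites. Nr4a1 had 97.4, 125.5 and 238 normalized counts in the wild type, 144, 157 and 242 in Kmt2a+/LSL, 196, 82.2 and 140 in the Cre control, and 188, 156.5 and 89.8 in restored cells. Ier2 had 353, 460.5 and 615 in the wild type, 404, 397 and 973 in Kmt2a+/LSL, 629, 442.5 and 404 in the Cre control, and 451.5, 491 and 424 in restored cells. Both were highest in Kmt2a+/LSL replicate 3, but for Nr4a1 only just above Kmt2a+/+ replicate 3. Arc had 4.2, 18.9 and 58.7 in the wild type, 39.1, 34.7 and 56.3 in Kmt2a+/LSL, 39.6, 11.2 and 8.5 in the Cre control, and 21.3, 17.8 and 24.9 in restored cells. All 3 Kmt2a+/LSL libraries lay above all 3 restored libraries, at counts that were low in every library.

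Dusp1 (chr17:26505590-26562128, minus strand) encodes a phosphatase that switches off the MAP kinases and so closes the loop on the signal that induced it. It had 42.4, 285 and 521.5 normalized counts in the wild type, 416, 328 and 508 in Kmt2a+/LSL, 397, 302 and 348 in the Cre control, and 409, 424 and 293 in restored cells. Kmt2a+/+ replicate 1 was far below the other 11 libraries, at 0.107 times their median, and these 11 lay within a 2-fold range.

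**Figure D1:**
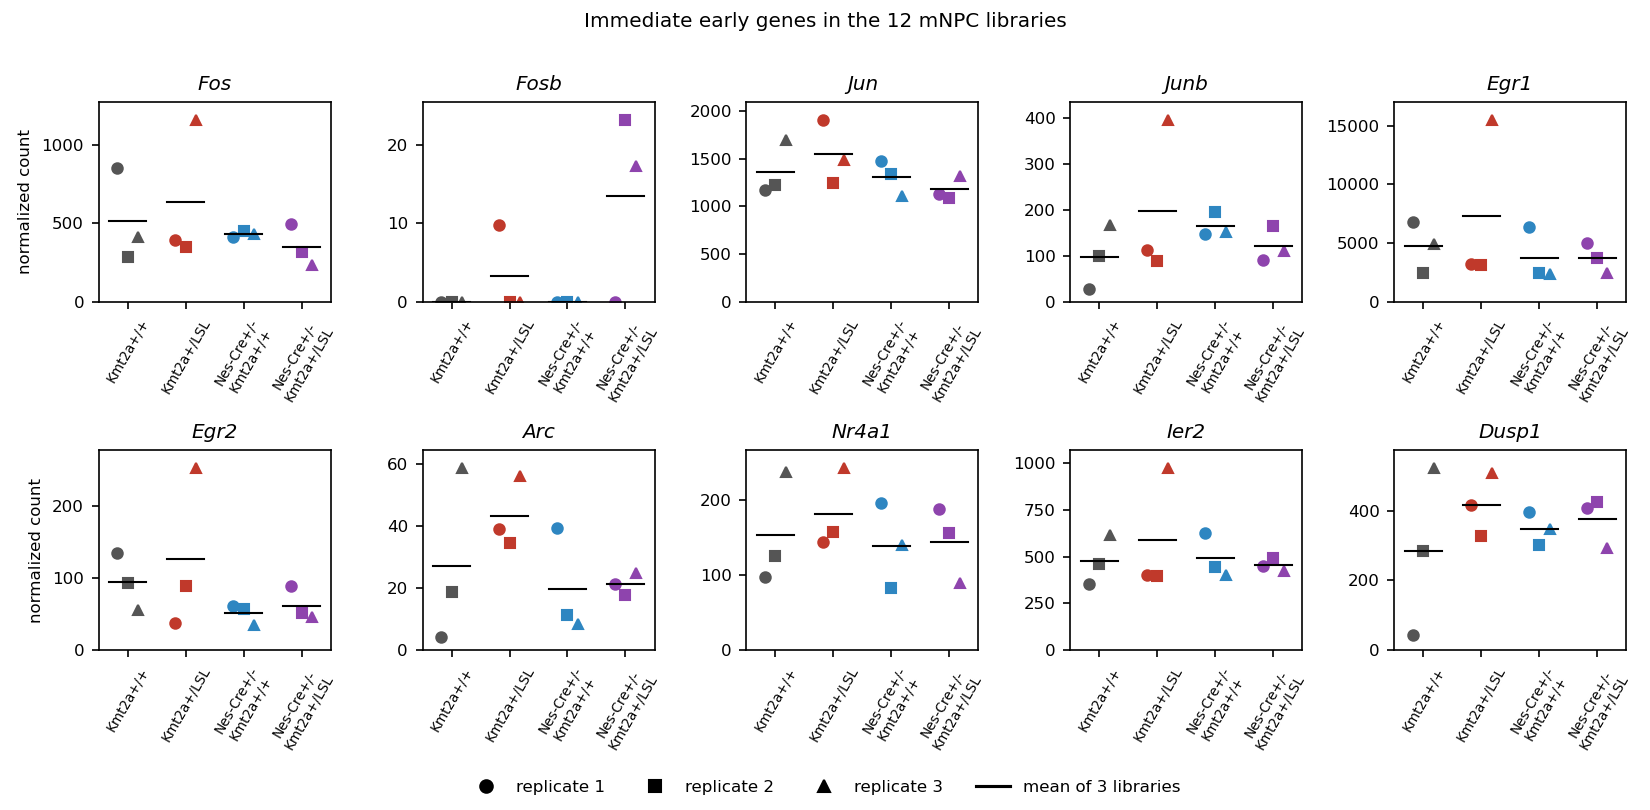
Normalized counts (linear axes from 0, in TMM-scaled counts) of the 10 immediate early genes in the 12 libraries, by genotype, with the replicate number as the symbol and the mean of 3 libraries as a bar. The triangle of Kmt2a+/LSL replicate 3 stands alone for Egr1 (15451 against 6822 or less in the other libraries), and also tops Fos, Junb, Egr2, Nr4a1 and Ier2.

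The comparison of Kmt2a+/LSL with Kmt2a+/+ addresses what the loss of 1 Kmt2a allele does in these cells. No immediate early gene passed the test: 0 of 10 had an adjusted p under 0.05 in edgeR's quasi-likelihood test, and neither did any of the 17076 genes (0%). The DESeq2 test and limma-voom also called 0 of 10. At an unadjusted p under 0.05 it was 0 of 10, against 1.79% of all genes. The means of the 9 genes with a fold change all leaned the same way, higher in Kmt2a+/LSL, by log2 fold changes between 0.18 (SE 0.21) for Jun and 1.00 (SE 0.64) for Junb, with a median of 0.42 where all tested genes had 0.00. Egr1 had 0.62 (SE 0.64), Fos 0.30 (SE 0.50) and Dusp1 0.55 (SE 0.59), all with an adjusted p of 1. Fosb is given no fold change in any comparison, since it is at 0 in 9 of 12 libraries and in every library of the wild type and the Cre control (its unadjusted p was 0.12). The direction turned for several genes when single libraries were left out. Without Kmt2a+/LSL replicate 3, 4 of 9 genes were higher and 5 lower, with a median of -0.03, and Fos (-0.47), Egr1 (-0.57), Egr2 (-0.58), Nr4a1 (-0.03) and Ier2 (-0.25) changed sign. Without Kmt2a+/+ replicate 1 the median was 0.15, with 8 of 9 higher, and without Kmt2a+/+ replicate 3 it was 0.65. With neither Kmt2a+/+ replicate 1 nor Kmt2a+/LSL replicate 3, 2 of 9 were higher. In no gene were the 3 libraries of a genotype all above or all below those of the other (background 2.30% of all genes higher and 1.76% lower). In bulk cultures, fewer cells that express a gene and less RNA of it per cell cannot be told apart.

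Setting restored beside Kmt2a+/LSL cells shows what restoring the allele and carrying Cre do together. These groups differ in both, so a difference between them cannot be assigned to the allele alone. The fold changes with Cre on its own are given further below. This second comparison shares the 3 Kmt2a+/LSL libraries with the one before, so a high Kmt2a+/LSL library pushes both, in opposite directions. Again 0 of 10 genes passed at an adjusted p under 0.05 (background 0%) and 0 of 10 at an unadjusted p under 0.05 (background 1.61%). The 9 genes with a fold change had lower means with Cre, with a median log2 fold change of -0.70 against 0.00 for all genes. Fosb had the opposite order of means, 3.26 ± 5.65 (SD, n = 3) in Kmt2a+/LSL and 13.5 ± 12 in restored cells, on libraries that overlapped (unadjusted p = 0.268 in edgeR). Egr2 (-1.03, SE 0.60), Arc (-1.02, SE 0.77), Egr1 (-0.97, SE 0.64) and Fos (-0.86, SE 0.50) were lowest, and Dusp1 (-0.15, SE 0.59) was nearest to 0, each with an adjusted p of 1 in edgeR. Arc was the single gene whose libraries did not overlap, lower with Cre, which 3.57% of all genes also showed (3.54% did so higher), and its unadjusted p was 0.208. Without Kmt2a+/LSL replicate 3, 5 of 9 were lower, the median was -0.03, and Junb (0.29), Egr1 (0.22), Ier2 (0.19) and Dusp1 (0.01) changed sign, while Arc stayed at -0.79 and Jun at -0.42. Leaving out any other library kept 9 of 9 lower, with medians from -1.04 to -0.55.

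**Figure D2:**
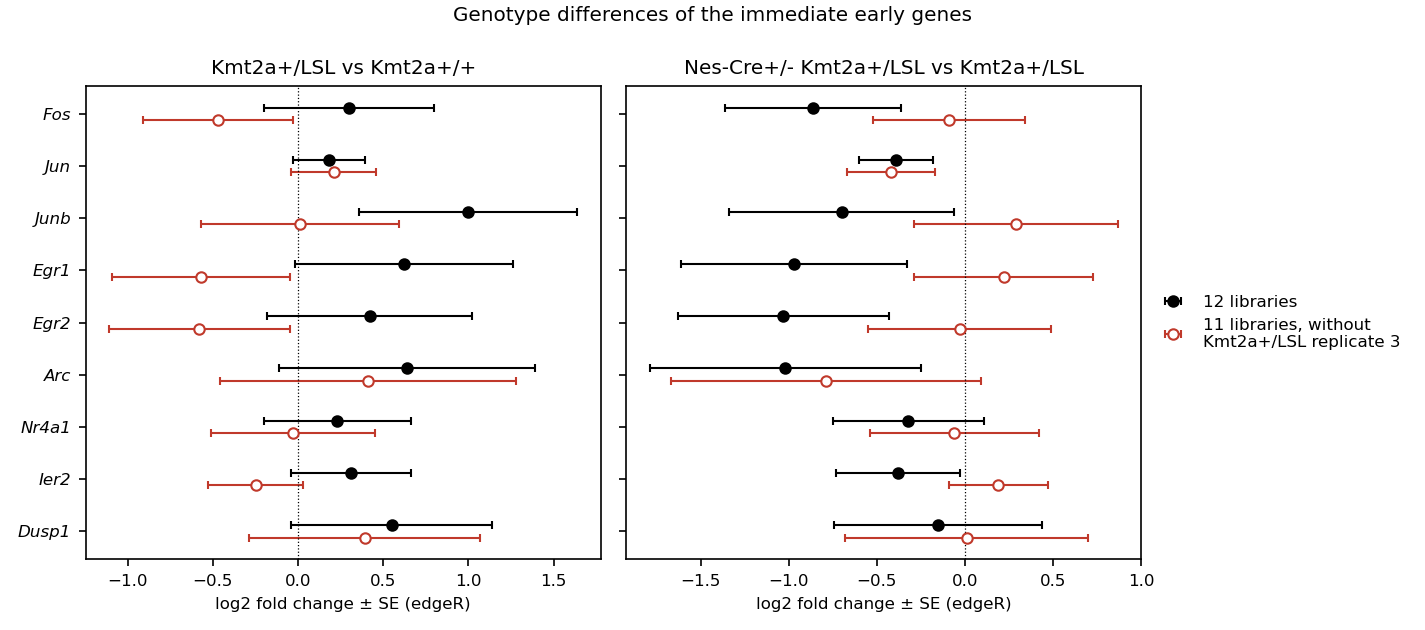
Log2 fold changes from edgeR for 9 immediate early genes (Fosb has none) in 2 comparisons, with standard errors derived from the F-test. Filled points use all 12 libraries and open points leave out Kmt2a+/LSL replicate 3. The filled points lie right of 0 on the left and left of 0 on the right, and the open points scatter about 0, with medians of -0.03 in both.

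Another test gave another count for this comparison. With z-scores from DESeq2 and p-values taken from an empirical null distribution, which stands for the study's fdrtool step but was fitted here on all 12 libraries where the study left out the Cre control, 4 of 10 genes were called lower in restored than in Kmt2a+/LSL cells, with 5.53% of all genes called. They were Jun (-0.38, SE 0.22, adjusted p = 0.0148) and Egr2 (-1.02, SE 0.62, adjusted p = 0.0187). The others were Fos (-0.85, SE 0.52, adjusted p = 0.0212) and Egr1 (-0.95, SE 0.64, adjusted p = 0.0404). At an unadjusted p under 0.05 this null gave 2769 genes and the DESeq2 test without it 263. The fitted null was thus narrower than a standard normal distribution. Without Kmt2a+/LSL replicate 3 only Jun was called (adjusted p = 0.0129, with 7.48% of all genes called), and without Kmt2a+/+ replicate 1 none was (0.759% of all genes called). The DESeq2 test without that null called 0 of 10. The fold changes themselves moved in the first case only. Without Kmt2a+/LSL replicate 3 they were -0.07 for Fos, -0.02 for Egr2, 0.24 for Egr1 and -0.40 for Jun. Kmt2a+/+ replicate 1 is in neither genotype compared, and without it they stayed at -0.85, -1.02, -0.95 and -0.38, with adjusted p-values of 0.275, 0.458, 0.761 and 0.355 after size factors, dispersions and null were refitted to the remaining libraries.

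In the other comparisons no immediate early gene passed either. Nes-Cre+/- Kmt2a+/+ against Kmt2a+/+, which shares the Kmt2a+/+ libraries with the first comparison, addresses what Cre does on its own. Of 10 genes 0 passed at an adjusted p under 0.05 (background 0%) and 0 at an unadjusted p under 0.05 (background 1.40%), and log2 fold changes ran from -0.88 (SE 0.61) for Egr2 to 0.73 (SE 0.64) for Junb, with 3 of 9 higher. In 0 of 10 did the libraries not overlap (background 2.82% higher and 1.53% lower). Without Kmt2a+/+ replicate 1, 4 of the 9 signs turned, and without Kmt2a+/+ replicate 3, 3 did. Nes-Cre+/- Kmt2a+/LSL against Nes-Cre+/- Kmt2a+/+ compares the restored allele with the wild type in the presence of Cre, and shares neither outlying library. There 0 of 10 passed at an adjusted p under 0.05 (background 0%), and log2 fold changes lay between -0.43 (SE 0.64) for Junb and 0.27 (SE 0.61) for Egr2, with a median of -0.01. Egr1 had -0.01 (SE 0.64) and Fos -0.31 (SE 0.50), and 0 of 10 genes had libraries that did not overlap (background 3.10% higher and 3.58% lower). At an unadjusted p under 0.05 it was 1 of 10 genes, Fosb, against 1.11% of all genes. Fosb had counts of 0, 26 and 16 in restored cells and 0 in all 3 Cre control libraries, and it passed the filter on low counts only through the libraries where it was not 0, so its p is no support for a difference. With the empirical null it was the 1 gene of 10 called (1.53% of all genes called), as it was without Kmt2a+/LSL replicate 3 (2.07% of all genes called), and 0 of 10 were called without Kmt2a+/+ replicate 1 (0.130% of all genes called). The same limit holds for these calls, and the Fosb counts compared are the same in all 3 fits.

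The effect of the LSL allele with Cre minus its effect without Cre tests the change of effect directly. Of 10 genes 0 passed at an adjusted p under 0.05 (background 0%) or an unadjusted p under 0.05 (background 1.73%), and the largest difference was that of Junb (-1.43, SE 0.90, unadjusted p = 0.142 in edgeR). All 9 differences were below 0, but 5 turned without Kmt2a+/LSL replicate 3, 3 without Cre control replicate 1, 2 each without Kmt2a+/+ replicate 1 and restored replicate 3, and 1 without Kmt2a+/+ replicate 3. With all 12 libraries 5 turned with an offset for the GC content of transcripts (the GC offset, added after seeing the data) and 2 with limma-voom, and 6 turned without both outlying libraries, and 6 with the GC offset and without Kmt2a+/LSL replicate 3. Over all 4 genotypes 0 of 10 passed at an adjusted p under 0.05 (background 0%) or an unadjusted p under 0.05 (background 1.15%), and Fosb had the smallest p (0.0525).

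Single libraries stood apart for these genes. Kmt2a+/LSL replicate 3 was the highest of 12 for 6 of 10 genes (Fos, Junb, Egr1, Egr2, Nr4a1 and Ier2), against 4.41% of all tested genes, and the lowest for 0 of 10 (2.17% of all genes). After an adjustment for GC content, described with Kmt2a+/+ replicate 1, it was the highest for 3 of 10 (3.89% of all genes). On log2 CPM with a prior count of 2, its genes lay 1.23 above the median of the other 11 libraries (median of the 10), from 0.00 for Fosb to 2.27 for Egr1, where 5% to 95% of all genes lay between -0.69 and 0.75. At least 2-fold above were 6 of 10, namely Fos, Junb, Egr1, Egr2, Arc and Ier2, against 3.17% of all genes, and 0 of 10 were at least 2-fold below (2.57% of all genes). Over all genes it resembled the other libraries, with a correlation of 0.989 with the median of the others, 22715382 counts and 5.67% mitochondrial mRNA. Kmt2a+/+ replicate 3 came next with a median of 0.52 and Arc at 1.38. Lowest was restored replicate 3 with -0.40.

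**Figure D3:**
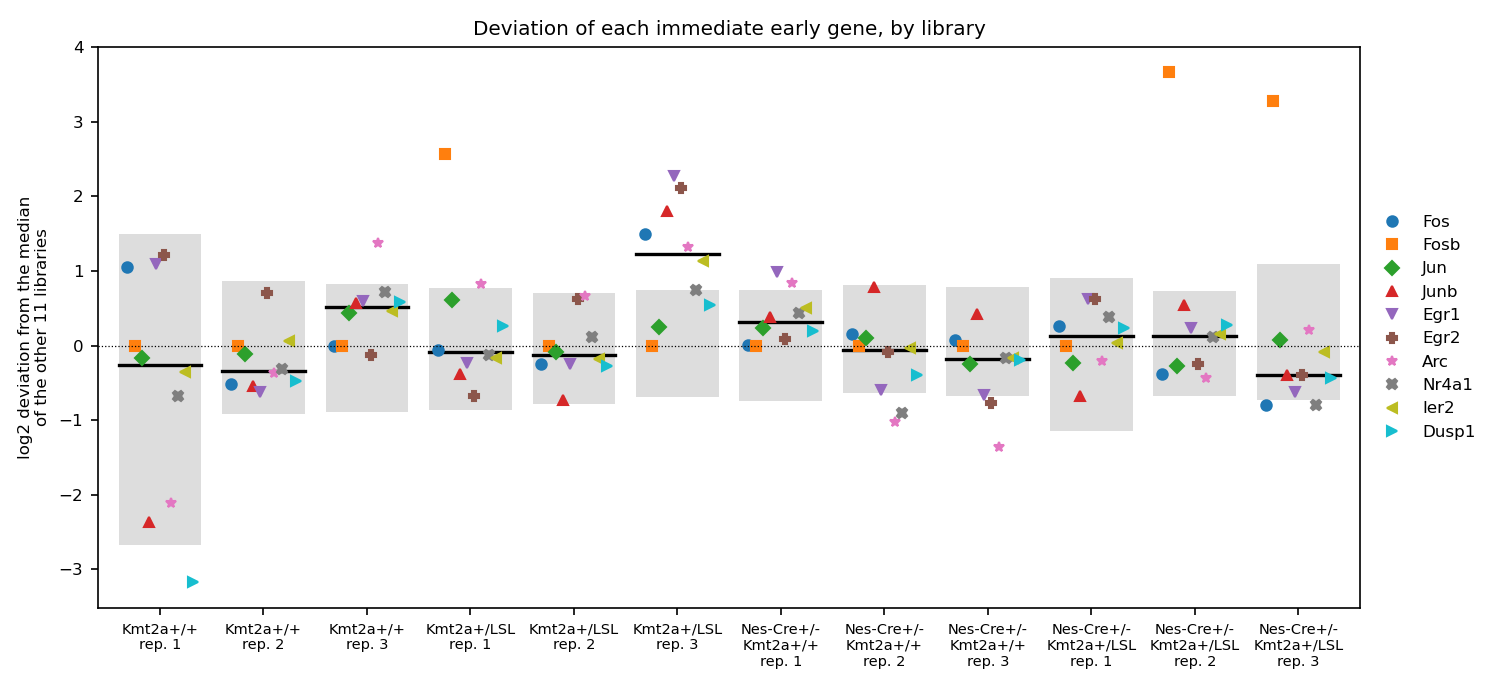
Log2 deviation of each immediate early gene from the median of the other 11 libraries (log2 CPM, prior count 2) in each library, with the median of the 10 genes as a bar and the 5th to 95th percentile of all tested genes in gray. The bar of Kmt2a+/LSL replicate 3 is at 1.23, above the gray box that ends at 0.75, and Kmt2a+/+ replicate 1 is spread from -3.17 (Dusp1) to 1.21 (Egr2).

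Kmt2a+/+ replicate 1 departed in both directions, as it did over all genes. It was the lowest of 12 for 4 of 10, Arc, Junb, Dusp1 and Ier2 (34.1% of all genes), while Fos, Egr1 and Egr2 lay at least 2-fold above the median of the others (13.0% of all genes did) and Arc, Junb and Dusp1 at least 2-fold below (26.8% of all genes did), so the shares of genes at the bottom are near those of all genes. Its departure followed the GC content of the transcripts, with a median log2 deviation of 0.83 in the lowest of 5 equal GC classes (31.9% to 44.2% GC) and -1.70 in the highest (55.8% to 72.1%). In Kmt2a+/LSL replicate 3 these medians were -0.13 and 0.11, and the next strongest gradients were -0.46 to 0.36 in Kmt2a+/+ replicate 3 and 0.36 to -0.42 in restored replicate 1. The GC content of the immediate early genes ran from 51.4% in Egr2 and 51.9% in Fos to 60.9% in Ier2 and 62.6% in Junb. After each library was adjusted for its GC gradient (a loess curve, chosen after seeing the data), Fos was 1172 in Kmt2a+/+ replicate 1 and 1088 in Kmt2a+/LSL replicate 3, with the other 10 libraries at 523 or less. Egr1 was 18405 and 13289 in these libraries, with the others at 5942 or less, and Ier2 1465 and 792. Kmt2a+/+ replicate 1 was then the highest of 12 for 5 of 10 genes (31.2% of all genes), namely Fos, Egr1, Ier2, Jun (2530, against 1831 or less) and Nr4a1 (251, against 223 or less). Kmt2a+/LSL replicate 3 was then the highest for 3 of 10 instead of 6 (3.89% of all genes), namely Junb (314), Egr2 (239) and Arc (47.2). Dusp1 remained lowest in Kmt2a+/+ replicate 1 (84.0, against 255 or more), and Junb (136, with 80.7 as the lowest elsewhere) and Arc (13.9, with 7.38 as the lowest elsewhere) did not. With this adjustment 5 of 9 genes were higher in Kmt2a+/LSL than in Kmt2a+/+, with a median log2 fold change of 0.02, and 9 of 9 stayed lower in restored than in Kmt2a+/LSL cells, with a median of -0.54. With the adjustment and without Kmt2a+/LSL replicate 3, 2 of 9 were higher in the first comparison (median -0.27) and 5 of 9 in the second (median 0.01). What set both libraries apart was not tested.

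**Figure D4:**
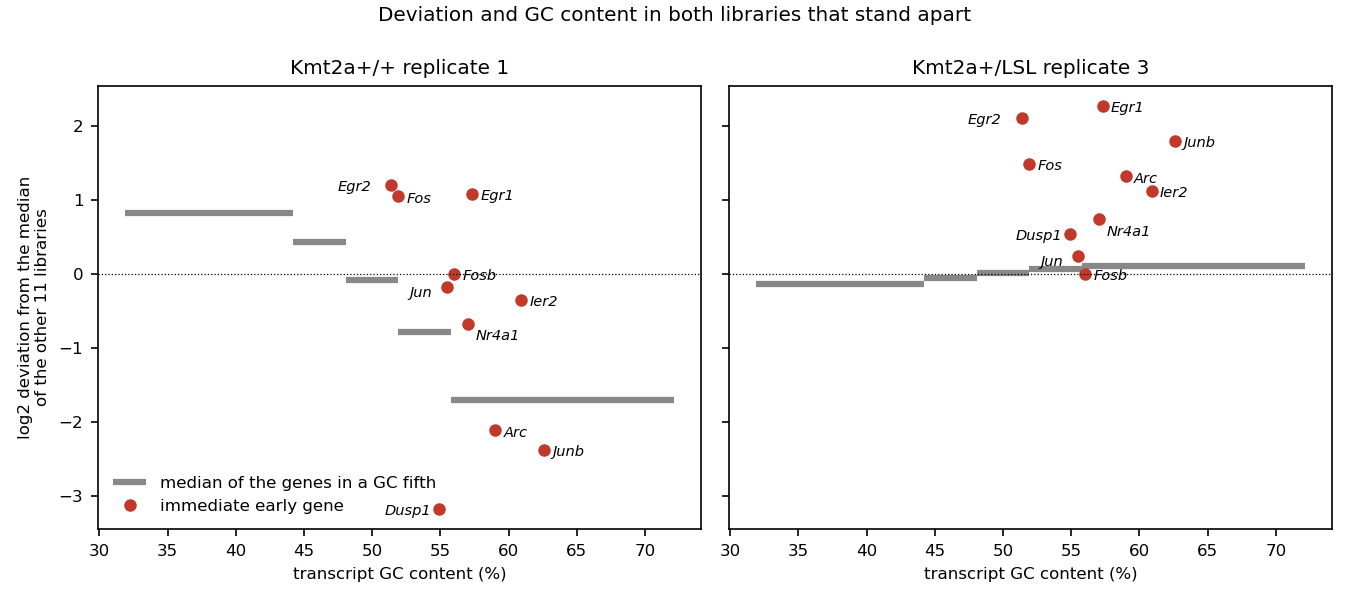
Log2 deviation of each immediate early gene from the median of the other 11 libraries against the GC content of its longest coding transcript, in Kmt2a+/+ replicate 1 and Kmt2a+/LSL replicate 3, with the median of all genes with a mean count of at least 50 in each of 5 equal GC classes as gray bars. The gray bars fall from 0.83 to -1.70 on the left and stay near 0 on the right, where 6 genes lie above 1.

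Within a genotype the immediate early genes varied more than most genes. The pooled SD of log2 CPM within genotypes was 0.91 for Junb, 0.96 for Dusp1, 0.89 for Egr1, 0.81 for Egr2, 0.67 for Fos, 0.56 for Nr4a1 and 0.45 for Ier2, against a median of 0.37 over the 11663 genes with a mean count of at least 50. Jun, at 0.25, was below this median over all 12 libraries. Arc (1.00) and Fosb (1.25) have mean counts under 50, where counting error adds to the spread. The genes compared with were not matched for mean count, and the means of Egr2 (83.2), Junb (146) and Nr4a1 (155) were also low. Without Kmt2a+/+ replicate 1 and Kmt2a+/LSL replicate 3 the median of all genes was 0.21. Egr1 (0.62), Egr2 (0.55) and Nr4a1 (0.55) then exceeded 93.8% of genes or more, against 93.4%, 91.4% and 76.6% over all 12 libraries. Fos (0.35), Junb (0.37) and Dusp1 (0.34) exceeded 80.2%, 82.4% and 78.9%, against 85.2%, 93.8% and 94.7% over all 12. Jun (0.27) then lay above 65.8% of genes and Ier2 (0.24), now the lowest of the 10, above 58.3%.

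The correlations between the genes differed from pair to pair and with the libraries used. As a description over 12 libraries, where all genes of a library share its depth and base composition bias, Pearson's r of log2 CPM was 0.82 for Fos with Egr1 and for Junb with Dusp1, 0.75 for Egr1 with Egr2 and 0.76 for Junb with Ier2, but 0.08 for Fos with Jun and with Junb, and -0.29 for Fos with Dusp1. Over the 10 libraries without both outlying ones, Egr1 went with Nr4a1 (0.82), Ier2 (0.76) and Dusp1 (0.75), while r was 0.42 for Fos with Egr1, -0.02 for Fos with Egr2, 0.24 for Egr1 with Egr2, 0.27 for Junb with Dusp1 and 0.45 for Junb with Ier2. Fos had 0.12 with Jun, 0.28 with Junb and 0.46 with Dusp1. Outside the set, the genes whose log2 CPM was most like it by the median r with the 10 were Nphp4 (0.66), Abhd11 (0.64), Ier3 (0.63), Elmo2 (0.62) and Ephx1 (0.62), and the least alike were Pcnx and Rab33b (both -0.64). Over the 10 libraries these values were 0.71 for Nphp4 and 0.47 to 0.52 for the other 4. Kmt2a+/+ replicate 1 was the lowest library for 4 of the 5 and the highest for Pcnx and Rab33b.

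Further immediate and delayed early genes formed a list of their own. Of 41 in this list, which held for example Egr3, Npas4, Atf3 and Nr4a2, 5 lay at least 2-fold above the median of the other libraries in Kmt2a+/LSL replicate 3 (Fosl1, Egr3, Egr4, Zfp36 and Npas4), where 3.17% of all genes did, and the median of the list was 0.34. Kmt2a+/+ replicate 3 gave like values, with 5 of 41 at least 2-fold above (3.33% of all genes) and a median of 0.32. In Kmt2a+/+ replicate 1, 5 of 41 lay at least 2-fold above (13.0% of all genes) and 16 of 41 below (26.8% of all genes), with a median of -0.54, where all genes had -0.15. In Kmt2a+/LSL against Kmt2a+/+ 22 of 41 were higher and 0 were called, and in restored against Kmt2a+/LSL cells 26 of 41 were lower and 0 were called, with medians of 0.02 and -0.06. Fosl1, a FOS paralog, had the smallest p over the 4 genotypes (unadjusted p = 0.0161 in edgeR), with a mean of 7.40 ± 4.70 (SD, n = 3) in the wild type, 1.02 ± 1.77 in Kmt2a+/LSL, 0.338 ± 0.586 in the Cre control and 0 in restored cells. It was followed by Ccn1, a matrix protein (110 ± 17.2, 98.7 ± 8.98, 114 ± 16.3 and 79.1 ± 3.91 in the same order), and Egr3 (6.19 ± 7.04, 15.3 ± 14.2, 2.91 ± 1.66 and 2.92 ± 2.53). These are low counts or small differences, and none passed over all genes. At an unadjusted p under 0.05, 0 genes of this list or of the next 4 were found in either of these comparisons.

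No gene of the lists for the upstream machinery passed the test. Of the 18 transcription factors and coactivators that switch immediate early genes on, 8 were higher and 10 lower in each of the first 2 comparisons, with medians of -0.06 and -0.03 and 0 called. Those with the smallest p were Crebbp, the CREB-binding acetyltransferase (1609 ± 599 in the wild type, 1362 ± 112 in Kmt2a+/LSL and 1808 ± 125 in restored cells), Mrtfb and Elk1. Of the 23 genes from the FGF and EGF receptors to ERK and its kinases 0 were called, with medians of 0.02 and -0.03, and the smallest p-values were those of Rps6ka1, Sos2 and Egfr (28123 ± 6785, 24273 ± 1108, 24518 ± 638 and 27993 ± 1259 in the wild type, Kmt2a+/LSL, the Cre control and restored cells). Of the 10 genes for decay and stability of mRNAs with AU-rich elements, such as those of Fos, 0 were called, with medians of 0.04 and 0.03. Hnrnpd, Elavl1 and Zfp36 had the smallest p, and Zfp36, which is also in the list of early genes, was 143 ± 58.2 in Kmt2a+/LSL against 104 ± 33.0 in Kmt2a+/+. Of the 12 heat shock and stress genes 0 were called, with medians of -0.06 and -0.06. Hspa8 (61021 ± 18704 in the wild type and 47152 ± 2827 in Kmt2a+/LSL), Ddit3 and Hsph1 had the smallest p.

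In Kmt2a+/LSL replicate 3 the median log2 deviation was 0.03 for the activating factors, 0.01 for the receptor to ERK list, 0.09 for the decay factors and 0.18 for the stress genes. Of these lists, Zfp36 of the decay factors lay at least 2-fold above and Mef2c of the activating factors at least 2-fold below. Markers of neural progenitors (median 0.00), neurons (-0.13), astrocytes (0.04) and the oligodendrocyte lineage (0.16) were close to the other libraries as well, while its immediate early genes had a median of 1.23.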

How the data were processed

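Poly(A)-selected RNA of 12 mNPC cultures, 3 per genotype, was sequenced. The authors pseudoaligned reads to the mm10 (GRCm38) transcriptome with kallisto 0.48.0 and summed transcripts to genes with tximport, and the deposited values are estimated counts, as whole numbers and not normalized. The planned count test was run on these values, and the rounding step before it changed none, since all were whole. Pseudoalignment splits reads between similar transcripts, which bears most on Jun and Junb. Labels gave each library its genotype and replicate number. The annotation (GRCm38) gave symbols for 18718 of 18911 genes. The test covered genes whose total exceeded 10 counts and that had any in 2 or more libraries, with edgeR 4.0.16 (R 4.3.3, TMM, quasi-likelihood F-test, two-sided, genotype as the only term, all 12 libraries), with Benjamini-Hochberg adjustment over 17076 genes and a threshold of 0.05. This test gives no standard error, so the SE of an edgeR fold change is its absolute value divided by the square root of F. DESeq2 1.42.0, an empirical null (fitted to the central 75% of absolute z-scores, which stands for the study's fdrtool step), limma 3.58.1 voom with quality weights, other filters, other samples in the fit, a replicate block and each library left out were alternatives. The fits were also run on simulated counts with less spread between libraries than here and with no outlying library or GC gradient. That run cannot show how the tests perform on these libraries. The 10 genes and the lists were chosen with earlier results of these data known. Named beside the 10 were Kmt2a, of each list the 3 genes with the smallest p over the genotypes, and the 5 most and 2 least alike genes with a mean count of at least 50. The GC offset (loess span 0.5), the fit without both outlying libraries and the empirical null with a library left out were added after seeing the data.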

Additional observations from a re-analysis of the deposited data

How the results depend on the processing

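The count of immediate early genes called stayed at 0 in each comparison under every alternative except the empirical null, which called 4 in restored against Kmt2a+/LSL cells and 1 (Fosb) in restored against Cre control cells, and 1 each without Kmt2a+/LSL replicate 3. Over all genes, edgeR called 0 in each comparison. The DESeq2 test called 7 in Kmt2a+/LSL against the wild type, 7 in restored against Kmt2a+/LSL, 3 in the Cre control against the wild type, 3 in restored against the Cre control, 10 for the difference between the LSL effects and 5 over the 4 genotypes. In the same order the empirical null called 32, 945, 7, 261 and 17, and was not run over the 4 genotypes. Without Kmt2a+/LSL replicate 3 it called 242, 1268, 12, 351 and 122, and without Kmt2a+/+ replicate 1 it called 7, 129, 7, 22 and 8. Limma-voom called 2 and 2 in the first 2 comparisons and 2 over the genotypes, the GC offset 2, 1 and 1, the GC offset without Kmt2a+/LSL replicate 3 called 1 in the second, and so did the fit without both outlying libraries. Leaving out each library gave 0 to 2, 0 to 1 and 0 to 3, each maximum without Kmt2a+/+ replicate 1.

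Log2 fold changes in Kmt2a+/LSL against the wild type turned with the GC offset for Jun (-0.17), Egr1 (-0.30), Nr4a1 (-0.08) and Ier2 (-0.48). With the offset and without Kmt2a+/LSL replicate 3 they were -0.71 for Fos, -0.10 for Jun, -0.14 for Junb, -1.37 for Egr1, -0.73 for Egr2, -0.27 for Nr4a1 and -0.93 for Ier2. Without both outlying libraries they were -0.42 for Junb, -0.20 for Egr1, -0.23 for Egr2, -0.07 for Arc, -0.27 for Nr4a1, -0.42 for Ier2 and -0.11 for Dusp1. In restored against Kmt2a+/LSL cells they turned to 0.28 for Junb, 0.31 for Egr1, 0.01 for Nr4a1, 0.23 for Ier2 and 0.05 for Dusp1 with the offset and without Kmt2a+/LSL replicate 3, and to 0.27 for Junb, 0.21 for Egr1 and 0.17 for Ier2 without both libraries. With each library left out, the ranges against the wild type were -0.47 to 0.85 for Fos, 0.00 to 0.36 for Jun, 0.01 to 1.62 for Junb, -0.57 to 0.98 for Egr1, -0.58 to 0.86 for Egr2, 0.15 to 1.85 for Arc, -0.03 to 0.70 for Nr4a1, -0.25 to 0.54 for Ier2 and 0.04 to 1.34 for Dusp1. In restored against Kmt2a+/LSL cells they were -1.19 to -0.09 for Fos, -1.04 to 0.29 for Junb, -1.32 to 0.22 for Egr1, -1.47 to -0.03 for Egr2, -0.55 to -0.06 for Nr4a1, -0.59 to 0.19 for Ier2 and -0.29 to 0.01 for Dusp1. Apart from the empirical null with a library left out, the lowest adjusted p over the alternatives was 0.511 (Ier2) in the first comparison and 0.0148 (Jun) in the second. With the empirical null and without Kmt2a+/LSL replicate 3, Jun had an adjusted p of 0.0129 in the second. The cause of these changes was not tested.

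The replicate numbers are not said to mark a shared litter or day. Deviations of same-numbered libraries correlated at 0.137 on average over 18 pairs (-0.138 to 0.589). Those of different numbers did so at -0.0651 over 36 pairs (-0.579 to 0.449), with pairs within a genotype left out. Of 12 libraries 8 correlated best with their own number, and whether the numbers mark a shared batch was not tested. With a replicate block 0 immediate early genes and 0 genes in all were called, and 1 of 9 signs turned, in restored against Cre control cells. With 3 libraries per genotype, Fosb and Arc rest on low counts.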
